A study of Mus musculus with 31 samples.

Results

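Described here are 9 genes of the pentose phosphate pathway and of cytosolic NADPH supply in mouse liver: G6pdx, Pgls, Pgd, H6pd, Rpia, Rpe, Tkt, Taldo1 and Idh1, 9 of the 43629 genes in the deposited table. All 9 passed the filter on low counts, which left 17057 genes for testing. The set was chosen by a measured value, since Tkt was seen to be higher when T4 was added to T3, and the other genes were then taken from the same pathway. Values from that contrast are therefore given as a description with no test.

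The samples were livers of 31 pups at postnatal day 14, each a separately numbered animal on a C57Bl/6J background. All pups, controls included, lacked both activating deiodinases (Dio1KO/Dio2KO), the enzymes that turn thyroxine (T4) into triiodothyronine (T3). Pax8KO pups form no thyroid follicles and make no thyroid hormone of their own, whereas the control littermates were Pax8Het and kept a thyroid. Injections were given on alternate days, the first on postnatal day 2. The control group held 5 Pax8Het pups given vehicle. Of the Pax8KO pups, 5 received vehicle, 8 received T4, 6 received T3 and 7 received T3+T4. Controls kept their own thyroid hormone but could not convert T4 through these deiodinases, so they are not wild-type livers. The design asks what T4 does in such a liver by itself and beside T3. Litters are not given, so p-values measure the spread between animals and not between litters.

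The pentose phosphate pathway takes glucose 6-phosphate out of glycolysis. Its oxidative branch yields NADPH, the reducing power for fatty acid and cholesterol synthesis and for glutathione, and leaves a pentose phosphate. The non-oxidative branch is reversible and exchanges carbon between pentose phosphates and the sugars of glycolysis. In liver, NADPH also comes from malic enzyme and from the cytosolic isocitrate dehydrogenase encoded by Idh1, and thyroid hormone is known to raise several of the lipogenic enzymes that use it.

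The gene starts are shown for the 3 genes that moved together (Tkt, Rpe and Idh1) and for 2 genes whose values went elsewhere (G6pdx and H6pd). Each run is the 250 bases before the RefSeq start (GRCm38.p6, the build whose coordinates mm10 shares), read 5′ to 3′ on the gene's own strand. Capitals mark every match, on either strand, to the motifs searched.
Tkt, chr14:30548881-30549130, plus strand: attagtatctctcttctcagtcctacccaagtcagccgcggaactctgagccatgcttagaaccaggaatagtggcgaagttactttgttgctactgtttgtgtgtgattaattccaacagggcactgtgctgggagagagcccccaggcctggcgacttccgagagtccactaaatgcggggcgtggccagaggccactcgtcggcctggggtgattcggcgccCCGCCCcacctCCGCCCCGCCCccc
Rpe, chr1:66700581-66700830, plus strand: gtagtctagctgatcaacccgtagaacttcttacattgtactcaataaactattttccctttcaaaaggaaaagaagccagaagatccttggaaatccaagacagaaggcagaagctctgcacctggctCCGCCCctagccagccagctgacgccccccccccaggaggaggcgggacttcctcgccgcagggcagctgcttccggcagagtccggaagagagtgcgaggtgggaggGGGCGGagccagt
Idh1, chr1:65179143-65179392, minus strand: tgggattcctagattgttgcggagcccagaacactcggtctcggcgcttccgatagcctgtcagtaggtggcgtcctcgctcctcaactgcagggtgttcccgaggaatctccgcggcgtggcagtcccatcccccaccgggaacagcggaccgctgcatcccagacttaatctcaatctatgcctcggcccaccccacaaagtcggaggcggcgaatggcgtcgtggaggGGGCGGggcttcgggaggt
G6pdx, chrX:74428881-74429130, minus strand: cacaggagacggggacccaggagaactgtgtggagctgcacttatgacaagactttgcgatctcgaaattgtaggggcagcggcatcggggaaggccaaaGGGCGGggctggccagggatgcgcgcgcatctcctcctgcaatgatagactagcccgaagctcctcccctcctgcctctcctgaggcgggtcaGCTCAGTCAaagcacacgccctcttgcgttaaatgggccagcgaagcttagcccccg
H6pd, chr4:150003237-150003486, minus strand: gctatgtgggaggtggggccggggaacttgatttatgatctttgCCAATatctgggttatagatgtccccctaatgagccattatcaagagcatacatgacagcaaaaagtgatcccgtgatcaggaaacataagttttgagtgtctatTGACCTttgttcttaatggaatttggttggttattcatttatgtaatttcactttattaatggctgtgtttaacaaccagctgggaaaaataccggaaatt
The capitals in Tkt, Rpe and Idh1 are all GC boxes (GGGCGG), and in Tkt 2 of the 3 matches share a base. GC boxes were found in 8 of the 9 windows, H6pd being the exception, and in 32.7% of all 32851 RefSeq windows of this length. The hexamer bound by thyroid hormone receptors, AGGTCA, was found in H6pd alone, 101 to 96 bases before the start on the reverse strand, while 14% of all windows hold it. Its direct repeat with 4 bases between, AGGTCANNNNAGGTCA, was in none of the 9 and in 0.0152% of windows. G6pdx holds the core of the antioxidant response element, TGACNNNGC, on the reverse strand 57 to 49 bases before its start, a motif present in 10.2% of windows. The CCAAT box (CCAAT) was found in H6pd, Pgd and Taldo1 and in 33.8% of windows. Neither the E-box CACGTG (6.02% of windows) nor the sterol element core TCACNCCAC (1.05%) was found in any of the 9. These are letter matches in a short window and nothing more. The RefSeq starts used lie 0 to 314 bases from the start of the principal transcript in the annotation. The windows shown for Tkt, Idh1, G6pdx and H6pd lie inside the annotated gene span. On the minus strand, the annotated H6pd and Idh1 genes reach upstream to 150009023 and 65186500, well before these windows. The H6pd window is 38.8% G or C, against 54.4% to 64.4% in the other 8.

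Library totals ran from 4383769 to 7158919 counts and were highest in T3+T4 livers (5531724 to 7158919, against 4901954 to 5625282 in vehicle livers). The sex-linked genes went against the labelled sex in 4 animals (1 each among vehicle, T4, T3 and T3+T4 livers), and by those genes 5 of 6 T3 livers but 2 of 7 T3+T4 livers were female. Genes of pancreatic acinar cells or of skeletal muscle, tissues that should be absent from liver, averaged at least 5 CPM (counts scaled to library size with TMM factors, which offset differences in library makeup) over their list in 12 libraries. The 8 acinar genes summed to 3.67 to 62.1 CPM in controls, 4.05 to 181 with vehicle, 2.25 to 12.1 with T4, 2.9 to 14.9 with T3 and 3.66 to 156 with T3+T4. All 6 acinar genes tested were higher in T3+T4 than in T4 livers (median 3.32 on the log2 scale), and 5 were lower in T3 than in vehicle livers. The 7 muscle genes summed to 2.23 to 3.81 CPM in controls, 2.22 to 9.97 with vehicle, 2.82 to 235 with T4, 5.68 to 371 with T3 and 2.57 to 84.7 with T3+T4, and 5 of 6 tested were higher in T3 than in vehicle livers. Hepatocyte markers summed to 2470 to 3490 CPM in T3+T4 livers and 3300 to 3900 CPM in vehicle livers. Of these 7 genes, 4 were lower in T3+T4 livers. The 9 granulocyte markers summed to 54.8 to 169 CPM in controls and 114 to 364 CPM in vehicle livers. No marker of these lists stayed at the table's lowest value in every library, and the part of these marker levels in the results was not tested beyond the values without the 12 libraries. Animals numbered 54 to 85 make up all T3 and T3+T4 livers but 1 of 5 controls and 2 of 5 vehicle livers, so animal number and group can be told apart only in part. In whole liver, fewer cells of a type and less RNA per cell cannot be told apart.

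Without thyroid hormone the liver held less mRNA for transketolase (Tkt), ribulose-phosphate epimerase (Rpe) and cytosolic isocitrate dehydrogenase (Idh1), and with T3 and T4 together it held more of each than with vehicle. In vehicle against control livers, 3 of the 9 genes fell (Tkt to 0.795-fold, Rpe to 0.746-fold and Idh1 to 0.804-fold) and 0 rose, where 4.71% of all tested genes fell and 4.92% rose. By unadjusted p under 0.05 there were 5 genes (also Taldo1 and H6pd), against 25.6% of all tested genes. DESeq2 called the 3. In T3+T4 against vehicle livers, 4 of 9 rose (Tkt 1.32-fold, Rpe 1.31-fold, Idh1 1.24-fold and Taldo1 1.21-fold) and 1 fell (H6pd to 0.787-fold), where 7.33% of all tested genes rose and 8.45% fell. DESeq2 called these 5 and Pgd. In T3+T4 against T4 livers, 3 of 9 rose (Rpe 1.28-fold, Idh1 1.21-fold and Tkt 1.18-fold) and 0 fell, against 4.06% and 4.55% of all tested genes. Comparisons that hold T3 or T3+T4 livers share them with the contrast that chose Tkt. The Tkt values in them, and the counts that include Tkt, are not independent of that choice. The acinar genes also rose in T3+T4 against T4 livers. Without the 12 libraries high in acinar or muscle genes 0 of 9 were called there, with Tkt at 0.25, Rpe at 0.37 and Idh1 at 0.27 (log2). With all libraries these estimates were 0.24, 0.35 and 0.28. The share of all genes called without the 12 libraries is not given here, so this loss of calls cannot be read as particular to the 9 genes. Among animals 54 to 85 alone, or without the 12 libraries high in acinar or muscle genes, Rpe and Idh1 were called in none of these comparisons, while their T3+T4 against vehicle estimates were 0.39 and 0.43 for Rpe and 0.29 and 0.33 for Idh1 (log2). Tkt in vehicle against control livers was not called among animals 54 to 85 (-0.32, adjusted p = 0.637), where 1 control stands against 2 vehicle livers. With sex as a covariate each of these counts was the same. These calls use edgeR's quasi-likelihood test with an adjusted p under 0.05 over all 17057 genes.

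Neither hormone given alone moved any of the 9 genes past that threshold. With T4 against vehicle the count was 0 of 9, where 0.41% of all genes were called. DESeq2 also called 0, and 3 genes (Tkt, G6pdx and Pgd) had an unadjusted p under 0.05, as did 12.7% of all tested genes. With T3 against vehicle it was 0 of 9 although 6.77% of all genes were called. Here DESeq2 again called 0 and 2 genes (G6pdx and H6pd) had an unadjusted p under 0.05, as did 21.9% of all tested genes. T4 and T3 livers compared with each other gave 0 of 9, with 0.551% of all genes called, and 0 by DESeq2. At an unadjusted p under 0.05 there was 1 (Tkt), against 14.2% of all tested genes. A gene called with both hormones and not with one is not thereby shown to differ between treatments. The tests of those differences are the T3+T4 against T4 values given here, which for Tkt are not independent of its choice.

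Set against the controls, T4 livers had 1 of 9 genes lower (Rpe, 0.769-fold) and 0 higher, where 1.71% of all genes were lower and 1.83% higher, and DESeq2 called 2 (also Idh1). T3 livers had 0 of 9 called (0.211% of all genes), although Tkt stood at 0.813-fold with an adjusted p of 0.0542 by edgeR, all T3 libraries lay below all control libraries, and DESeq2 called it. This comparison shares the T3 libraries with the contrast that chose Tkt, so it is not independent of the choice. T3 livers also had 4 genes at an unadjusted p under 0.05, against 17.4% of all tested genes. T3+T4 livers had 0 of 9 called, in a comparison that called 0% of all genes. None of the 9 had an unadjusted p under 0.05 there, against 7.19% of all tested genes, and DESeq2 called 0. The 95% intervals for T3+T4 against control ran from -0.06 to 0.20 for Tkt, -0.22 to 0.16 for Rpe and -0.17 to 0.16 for Idh1 on the log2 scale.

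**Figure D1:**
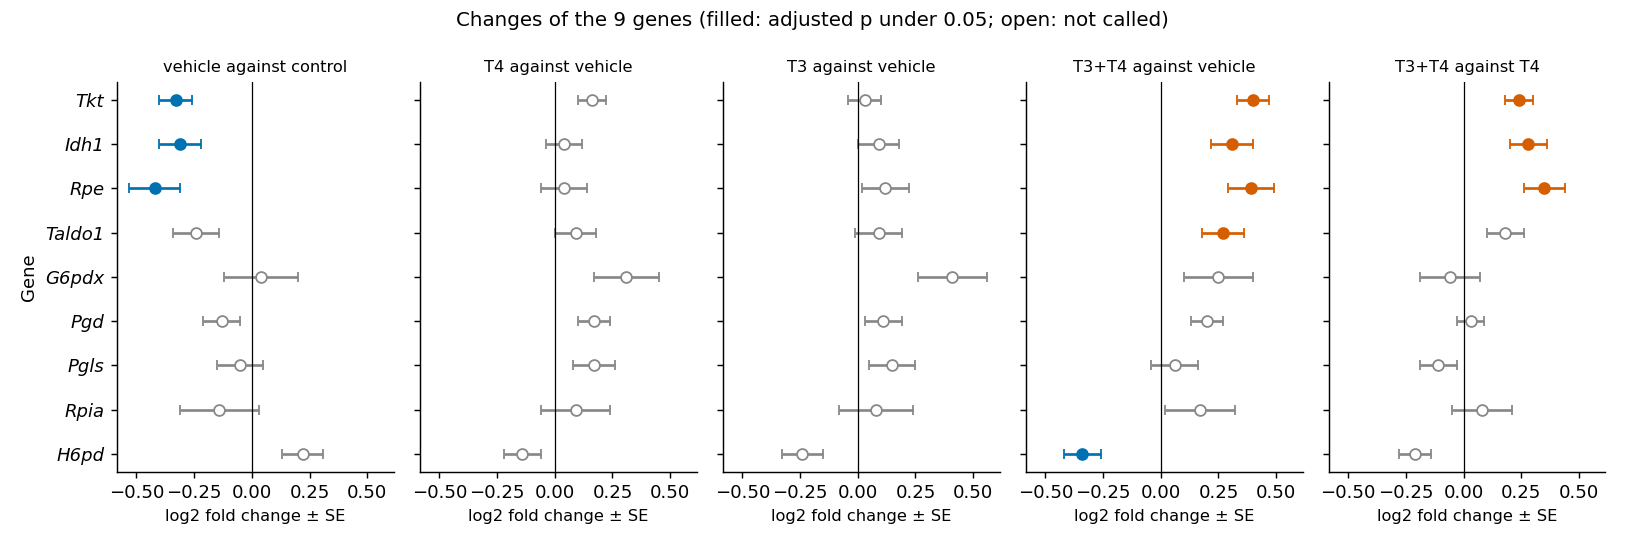
Log2 fold change with its SE (horizontal axis) of each of the 9 genes (vertical axis) in 5 comparisons, from the fit over all 31 libraries. Filled symbols passed an adjusted p of 0.05 and open symbols did not: Tkt, Idh1 and Rpe are filled below 0 in vehicle against control and above 0 in T3+T4 against vehicle and against T4, while H6pd is filled below 0 with T3+T4.

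Levels between genes are compared here only per length, as CPM per kilobase of the principal transcript averaged over the 31 libraries. H6pd (130) and Idh1 (114) were highest, then Taldo1 (63.9), Pgls (60.3), Pgd (32.8), Tkt (29.6) and Rpe (23.6), with G6pdx (9.43) and Rpia (6.32) lowest. Raw values per library ran from 41 counts for Rpia to 4223 counts for H6pd. The median coefficient of variation within groups was 7.56% for Tkt and 8.42% for Idh1, the smallest of the 9, and 18.1% for G6pdx, the largest. One alternative setting took counts to level off at 2 per exonic base, a ceiling that is assumed and not shown here. H6pd reached 0.807 and Idh1 0.743 counts per exonic base, where a correction for it would raise the highest value by 28% and 25%. If such a ceiling holds, fold changes of these 2 genes may be understated. With the correction Idh1 came to 0.41 in T3+T4 against vehicle (adjusted p = 0.00392) and H6pd to -0.36 (0.0164) on the log2 scale.

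**Figure D2:**
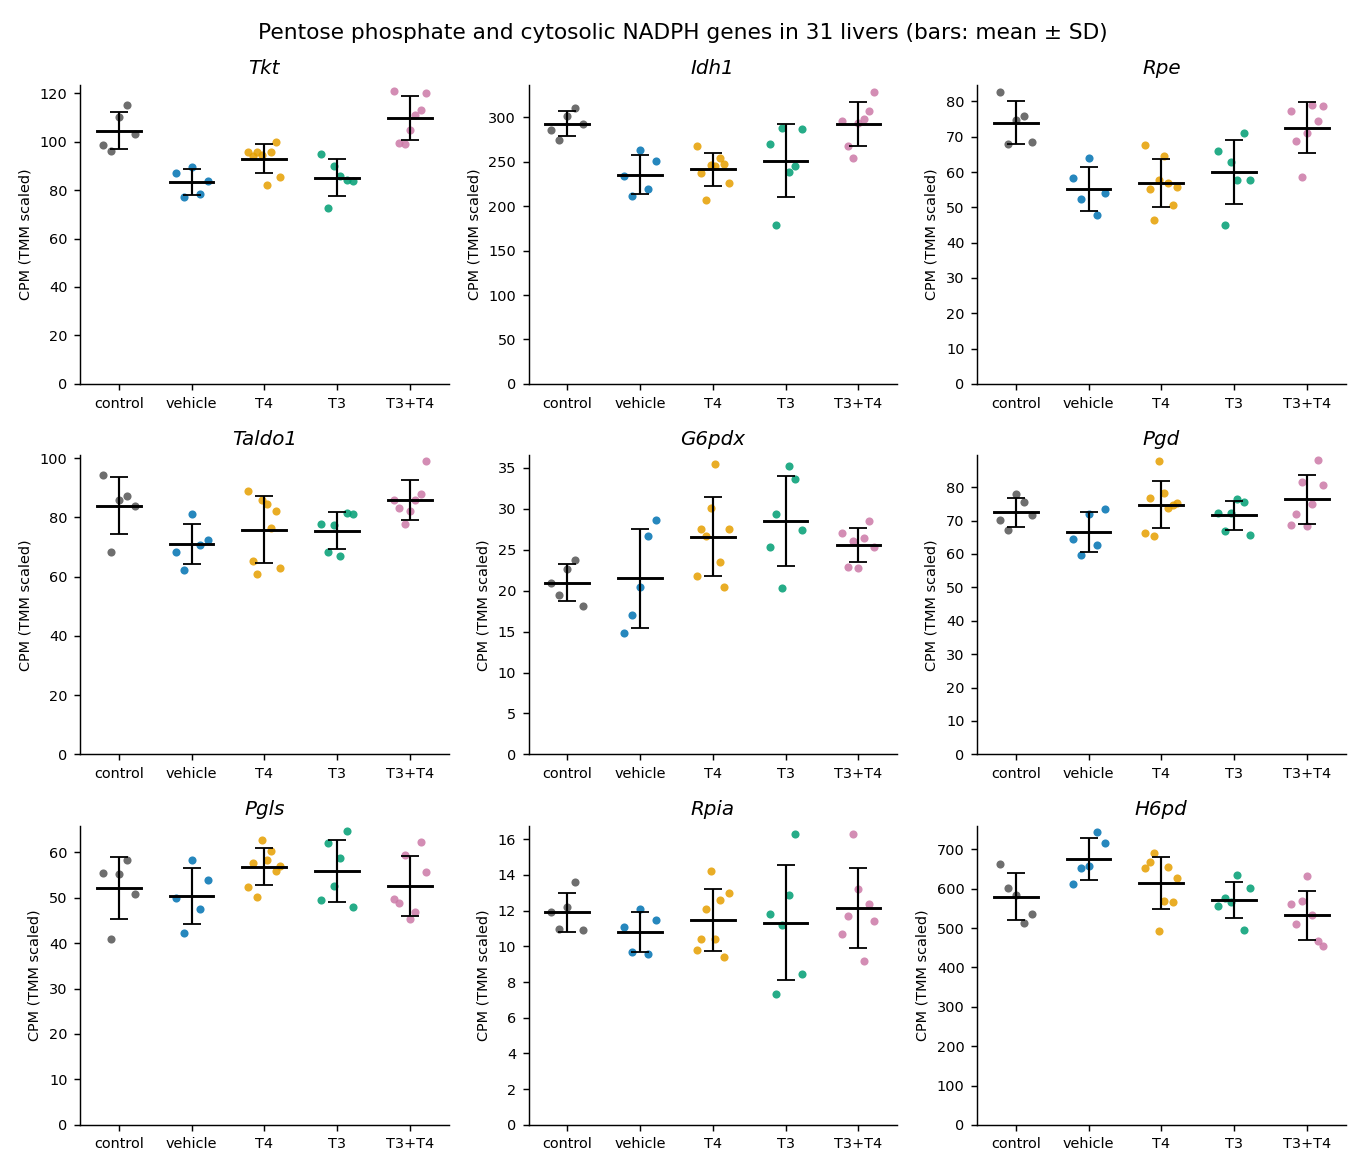
CPM after TMM scaling (vertical axis, from 0) of the 9 genes in each liver (points), by group, with the group mean and SD as bars. Tkt, Idh1 and Rpe are high in control and T3+T4 livers and low in vehicle livers, H6pd runs the other way, and Pgd, Pgls and Rpia overlap between all groups.

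The oxidative branch begins with glucose-6-phosphate dehydrogenase, encoded in the cytosolic form by G6pdx (ENSMUSG00000031400, mm10 X:74409483-74429194, minus strand), the step that commits glucose 6-phosphate to the pathway. G6pdx read 20.9, 19.5, 22.7, 23.7 and 18.1 CPM in the 5 controls and 14.8, 17, 20.4, 26.7 and 28.6 CPM in the 5 vehicle livers. It ran from 20.4 to 35.5 CPM with T4 (median 27.1), from 20.3 to 35.3 with T3 (median 28.4) and from 22.8 to 28.5 with T3+T4 (median 26.1). Vehicle livers thus spread on both sides of the controls and overlapped every treated group. G6pdx was not called in any comparison. Its largest estimate against vehicle was with T3, 0.41 ± 0.15 (log2, SE; 95% interval 0.11 to 0.71; adjusted p = 0.0994). That estimate passed the threshold without vehicle animal 2019 (0.54, adjusted p = 0.0367) or without T3 animal 62 (0.50, 0.0343), and was 0.43 with sex as a covariate (0.142). Reads of this gene are uncertain. Its exons share 418 bases with Ikbkg on the opposite strand, which averaged 1040 counts, and the use of strand in counting is not given. The intronless copy G6pd2 held 5.63 ± 1.28 CPM in controls and 7.94 ± 1.11 CPM in T3 livers (SD, n = 5 and 6), and reads could be split between the 2 genes.

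The next enzymes of the branch, the lactonase Pgls and the second NADPH-forming enzyme 6-phosphogluconate dehydrogenase (Pgd), stayed within a narrow range. Pgls (ENSMUSG00000031807, mm10 8:71592176-71601092, plus strand) averaged between 50.4 ± 6.13 CPM in vehicle livers and 56.8 ± 4.07 CPM in T4 livers (SD, n = 5 and 8). All groups overlapped for Pgls, its estimates against vehicle were 0.17 with T4, 0.15 with T3 and 0.06 with T3+T4 (log2), and none was called. Its exons share 776 bases with Fam129c on the same strand, which averaged 35 counts. Pgd (ENSMUSG00000028961, mm10 4:149149991-149166771, minus strand) read 70.1, 67.2, 78, 75.6 and 71.7 CPM in controls and 64.6, 59.8, 71.9, 62.6 and 73.5 CPM in vehicle livers, and from 68.3 to 88.1 CPM with T3+T4 (median 74.9). Those 3 groups overlapped. Pgd was 0.20 ± 0.07 higher with T3+T4 than with vehicle (log2, SE; 95% interval 0.06 to 0.34), with an adjusted p of 0.0583, short of the threshold. It passed in 9 of 44 alternative settings, DESeq2 among them, and the lowest adjusted p over all of them was 0.0221. Against T4 alone the Pgd estimate was 0.03 (95% interval -0.09 to 0.16).

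H6pd (ENSMUSG00000028980, mm10 4:149979475-150009023, minus strand) encodes a bifunctional enzyme of the endoplasmic reticulum. It runs the steps of G6pdx and Pgls there, and its NADPH feeds steroid reductases. H6pd read 664, 603, 584, 513 and 537 CPM in controls and 611, 653, 657, 745 and 716 CPM in vehicle livers. With T4 it ran from 492 to 690 CPM (median 639), with T3 from 496 to 634 (median 572) and with T3+T4 from 455 to 633 (median 534). Vehicle livers were highest as a group, and the lowest of them lay under the highest T3+T4 liver. H6pd fell by 0.34 ± 0.08 with T3+T4 against vehicle (log2, SE; adjusted p = 0.00546). The fall was 0.38 among animals 54 to 85 alone, where it missed the threshold (adjusted p = 0.0551). Against control the vehicle estimate was 0.22 ± 0.09 (adjusted p = 0.12), and with T3 against vehicle it was -0.24 ± 0.09 (0.09). With T3+T4 against T4 it was -0.21 ± 0.07 (0.0841), and it passed there without the animals of mismatched sex label (-0.29, 0.0101), without T4 animal 54 (-0.25, 0.0232) or without T3+T4 animal 79 (-0.25, 0.0317). In vehicle against control livers and in both T3+T4 comparisons H6pd had the opposite sign to Tkt, Rpe and Idh1.

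The non-oxidative branch starts with the isomerase Rpia and the epimerase Rpe, which interconvert the pentose phosphates. Rpia (ENSMUSG00000053604, mm10 6:70765720-70792232, minus strand) averaged 11.9 ± 1.1 CPM in controls, 10.8 ± 1.11 with vehicle, 11.5 ± 1.72 with T4, 11.3 ± 3.22 with T3 and 12.1 ± 2.23 with T3+T4 (SD). The libraries of all 5 groups overlapped, and Rpia was not called in any comparison. At 41 to 121 counts per library its estimates carried an SE of 0.13 to 0.17, and its 95% interval for T3+T4 against vehicle, -0.13 to 0.47, takes in the change seen in Tkt.

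Rpe (ENSMUSG00000026005, mm10 1:66700831-66719805, plus strand) read 82.8, 68, 74.8, 75.8 and 68.4 CPM in controls and 58.2, 52.3, 63.9, 47.7 and 54 CPM in vehicle livers. It ran from 46.4 to 67.6 CPM with T4 (median 56.3), from 45 to 71.2 with T3 (median 60.3) and from 58.5 to 78.9 with T3+T4 (median 74.6). Each control lay above each vehicle and each T4 liver, whereas T3+T4 livers overlapped all groups. Rpe fell by 0.42 ± 0.11 in vehicle against control livers (log2, SE; adjusted p = 0.0114) and by 0.38 ± 0.09 in T4 against control livers (0.0252). It rose by 0.39 ± 0.10 with T3+T4 against vehicle (0.00673) and by 0.35 ± 0.09 with T3+T4 against T4 (0.0113). Rpe shares 558 exonic bases with Kansl1l on the opposite strand, which averaged 241 counts. Kansl1l stood at 0.36 ± 0.15 in vehicle against control livers (adjusted p = 0.136), -0.47 ± 0.14 with T3+T4 against vehicle (0.0229), -0.51 ± 0.14 with T4 against vehicle (0.0919) and 0.04 ± 0.13 with T3+T4 against T4 (0.902). The call in T4 against control livers was lost on leaving out control animal 42, 49 or 50 or T4 animal 46.

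Transketolase (Tkt, ENSMUSG00000021957, mm10 14:30548359-30574720, plus strand) moves 2-carbon units between sugar phosphates and links the pathway to glycolysis. Tkt read 98.7, 96.3, 110, 115 and 103 CPM in controls and 87.2, 77.2, 89.5, 78.4 and 83.8 CPM in vehicle livers. It ran from 82.3 to 99.9 CPM with T4 (median 95), from 72.7 to 95 with T3 (median 84.9) and from 99.1 to 121 with T3+T4 (median 111). Every control and every T3+T4 liver lay above every vehicle and every T3 liver, and 1 T4 liver reached into the T3+T4 range. Group means were 110 ± 8.96 CPM with T3+T4, 105 ± 7.92 in controls, 92.9 ± 5.93 with T4, 85.2 ± 7.44 with T3 and 83.2 ± 5.38 with vehicle (SD). No neighbouring pair in that order passed the test, the adjusted p being 0.925 for T3+T4 against control, 0.123 for T4 against control, 0.349 for T4 against T3 and 0.829 for T3 against vehicle.

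Tkt fell by 0.33 ± 0.07 in vehicle against control livers (log2, SE; adjusted p = 0.00355). It rose by 0.40 ± 0.07 with T3+T4 against vehicle (adjusted p = 0.000156) and by 0.24 ± 0.06 with T3+T4 against T4 (0.00992). The last 2 comparisons share the T3+T4 libraries with the contrast that chose Tkt, so they are not independent of the choice, and T3 against vehicle shares its T3 libraries. With T4 alone the estimate against vehicle was 0.16 ± 0.06 (95% interval 0.03 to 0.29; adjusted p = 0.286) and with T3 alone 0.03 ± 0.07 (-0.10 to 0.17; 0.829). The rise of Tkt with T3+T4 against vehicle passed in all 44 alternative settings. It was 0.40 among animals 54 to 85 (adjusted p = 0.0318), 0.39 without the animals whose sex label did not match (0.00185), 0.44 without the 12 libraries high in acinar or muscle genes (0.0231) and 0.50 in a fit that takes account of the library total (9.21e-05). The rise against T4 was 0.25 without those 12 libraries and missed the threshold there (0.196).

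In the contrast that chose the set, T3+T4 against T3, Tkt stood 0.37 ± 0.06 higher on the log2 scale, or 1.29-fold, and the lowest T3+T4 liver (99.1 CPM) lay above the highest T3 liver (95 CPM). This difference ranged from 0.32 without T3 animal 61 to 0.43 without the libraries high in acinar or muscle genes. The other 8 genes overlapped between these groups. Because Tkt was chosen in this contrast, its separation cannot be read as setting it apart from them. The share of all genes without overlap is not given here. Rpe stood at 0.27 ± 0.09, Idh1 at 0.22 ± 0.08, Taldo1 at 0.19 ± 0.09, Rpia at 0.10 ± 0.14 and Pgd at 0.09 ± 0.07. Pgls at -0.09 ± 0.09, H6pd at -0.10 ± 0.08 and G6pdx at -0.16 ± 0.14 were on the other side of 0.

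Transaldolase (Taldo1, ENSMUSG00000025503, mm10 7:141392199-141402968, plus strand) works beside transketolase, moving 3-carbon units. Taldo1 read 94.3, 68.2, 85.7, 87.2 and 83.9 CPM in controls and 68.4, 62.4, 81.3, 70.7 and 72.3 CPM in vehicle livers. It ran from 60.9 to 89 CPM with T4 (median 79.3), from 66.9 to 81.5 with T3 (median 77.5) and from 77.6 to 99 with T3+T4 (median 85.8). A single vehicle liver, at 81.3 CPM, reached into the T3+T4 range. Taldo1 rose by 0.27 ± 0.09 with T3+T4 against vehicle (log2, SE; adjusted p = 0.0441), but this call was lost in 14 of 44 alternative settings, 11 of which left out 1 library, with adjusted p up to 0.369. Its vehicle against control estimate was -0.24 ± 0.10 (adjusted p = 0.13).

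Idh1 (ENSMUSG00000025950, mm10 1:65158616-65186500, minus strand) encodes the cytosolic NADP-dependent isocitrate dehydrogenase, a source of NADPH outside the pentose phosphate pathway. Idh1 read 286, 274, 302, 311 and 292 CPM in controls and 234, 211, 263, 219 and 251 CPM in vehicle livers. It ran from 207 to 268 CPM with T4 (median 245), from 179 to 288 with T3 (median 257) and from 254 to 329 with T3+T4 (median 296). Controls lay above all vehicle and all T4 livers, and T3+T4 livers overlapped each group. Idh1 fell by 0.31 ± 0.09 in vehicle against control livers (log2, SE; adjusted p = 0.0298). It rose by 0.31 ± 0.09 with T3+T4 against vehicle (0.0135) and by 0.28 ± 0.08 with T3+T4 against T4 (0.0207). With T4 alone it was 0.04 ± 0.08 (95% interval -0.13 to 0.20) and with T3 alone 0.09 ± 0.09 (-0.08 to 0.27) against vehicle. The call in vehicle against control livers was lost on leaving out control animal 49 or 50 or vehicle animal 37, 38 or 67, with the estimate between -0.37 and -0.28 throughout. That in T3+T4 against vehicle livers was lost without vehicle animal 38 or the 4 animals of mismatched sex label (0.28, adjusted p = 0.055), and that against T4 without T4 animal 46 or T3+T4 animal 85.

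Across the 31 livers, the genes most like Tkt were sought among 13932 others with a mean of at least 5 CPM, by Pearson r of log2(CPM + 0.5). The 5 highest were Thrsp, Aacs, Wdr18 and Gna14 (each r = 0.83) and Hmgcs1 (r = 0.82). Thrsp is a thyroid hormone responsive gene of lipogenic tissue, Aacs activates acetoacetate for lipid synthesis, and Hmgcs1 begins the cholesterol pathway. Among the 9 genes, Idh1 (r = 0.80) ranked at 9 of 13932, Rpe (0.72) at 102, Taldo1 (0.63) at 419 and Pgd (0.42) at 1868, while H6pd (-0.50) ranked at 12990. After each group's mean was removed, r with Tkt was 0.69 for Idh1, 0.46 for Rpe, 0.39 for Taldo1 and -0.26 for H6pd. These are descriptions over libraries that share depth, RNA quality and group differences.

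**Figure D3:**
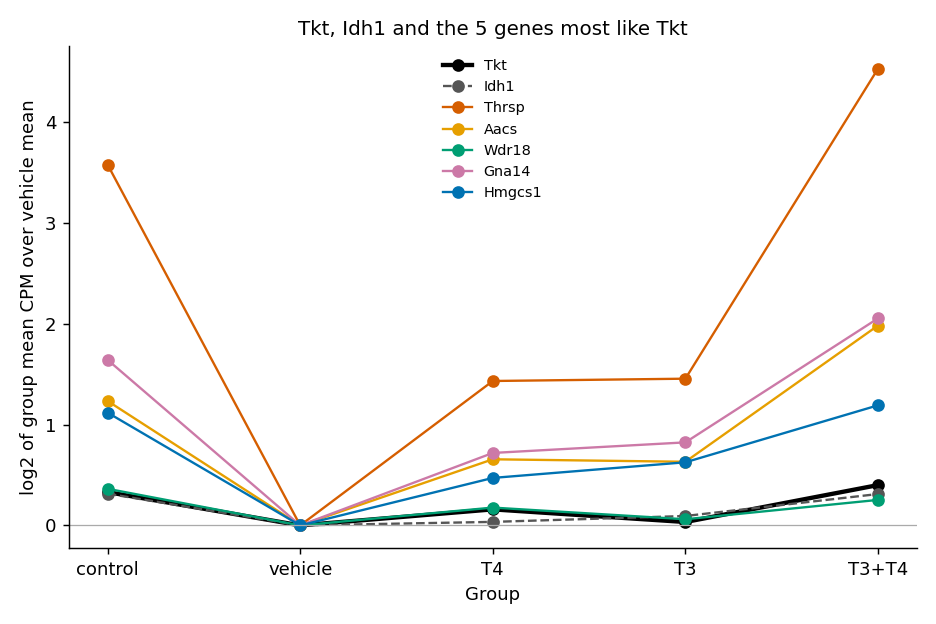
Log2 of the group mean CPM over the vehicle mean (vertical axis) for Tkt, Idh1 and the 5 genes most like Tkt, in the 5 groups (horizontal axis); lines join the groups only to guide the eye. All lines are low with vehicle and high in controls and with T3+T4, but Tkt, Idh1 and Wdr18 stay under 0.5 and Thrsp exceeds 4.

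The likeness is one of shape and not of size. The genes most like Tkt were picked over these same libraries, group differences included. Their p-values here are therefore not independent of that choice. Thrsp averaged 34.3 CPM in controls, 2.87 with vehicle, 7.74 with T4, 7.89 with T3 and 66.2 with T3+T4. It fell by 3.57 ± 0.86 in vehicle against control livers (log2, SE; adjusted p = 0.00848) and rose by 4.51 ± 0.83 with T3+T4 against vehicle (0.000496). Aacs rose by 1.98 ± 0.25 (4.08e-06), Gna14 by 2.04 ± 0.32 (8.76e-05) and Hmgcs1 by 1.19 ± 0.18 (3.92e-05) with T3+T4 against vehicle. Wdr18, at 81.4 to 105 CPM by group, rose by 0.25 ± 0.07 (0.0197). With T4 alone against vehicle Thrsp stood at 1.41 ± 0.86 (0.527), Aacs at 0.65 ± 0.24 (0.234) and Hmgcs1 at 0.47 ± 0.17 (0.208). Hmgcs1 rose with T3 alone (0.63 ± 0.18, adjusted p = 0.0316).

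Other genes listed as sources of NADPH or NADP did not move as one. Of 12, 11 were tested. Not every listed gene makes NADPH or NADP, since the folate genes include Mthfd2, whose enzyme works mainly with NAD. For this list and those below, the share of all genes called in each comparison is the one given above for the pathway genes. In vehicle against control livers 2 rose (Nnt and Idh2) and 2 fell (Me1 and Nadk), and the list's median was 0.21 on the log2 scale against 0.01 for all genes. With T3+T4 against vehicle 3 rose (Me1, Mthfd2 and Nadk) and 2 fell (Idh2 and Nnt), with a median of -0.25. With T3 against vehicle 2 rose (Me1 and Mthfd2) and 3 fell (Idh2, Nnt and Nadk2), and with T3+T4 against T4 2 rose (Me1 and Nadk) and 1 fell (Idh2). Malic enzyme (Me1), which makes cytosolic NADPH from malate, averaged 74.4 ± 24.7 CPM in controls, 28.4 ± 10.7 with vehicle, 56.8 ± 31.5 with T4, 115 ± 52.7 with T3 and 117 ± 37.3 with T3+T4 (SD). It rose by 2.01 ± 0.38 with T3 (adjusted p = 0.00199) and by 2.03 ± 0.37 with T3+T4 against vehicle (0.000456).

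Idh2, the mitochondrial counterpart of Idh1, went the opposite way to it. Idh2 averaged 171 ± 10.3 CPM in controls, 214 ± 26.5 with vehicle, 192 ± 13.8 with T4, 158 ± 26.6 with T3 and 152 ± 11.4 with T3+T4 (SD). It rose by 0.32 ± 0.09 in vehicle against control livers (adjusted p = 0.0266) and fell by 0.49 ± 0.08 with T3+T4 against vehicle (0.000258). The ratio of Idh1 to Idh2 CPM was 1.55 to 1.96 in controls, 1.03 to 1.22 with vehicle, 1.08 to 1.35 with T4, 1.37 to 1.99 with T3 and 1.69 to 2.38 with T3+T4. By this ratio no vehicle or T4 liver reached a control or a T3 or T3+T4 liver, but the T4 and T3 ranges came as close as 1.35 and 1.37. The ratio pairs 2 genes that moved in opposite directions in these same data, so some separation was built in. No share over other pairs of genes is given here. Nnt, the mitochondrial transhydrogenase that makes NADPH from NADH, averaged 149 ± 13.5 CPM in controls, 204 ± 32.4 with vehicle and 140 ± 10.1 with T3+T4 (SD). C57Bl/6J mice are known to carry a deletion inside Nnt, and counts per gene do not show whether these animals carried it.

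**Figure D4:**
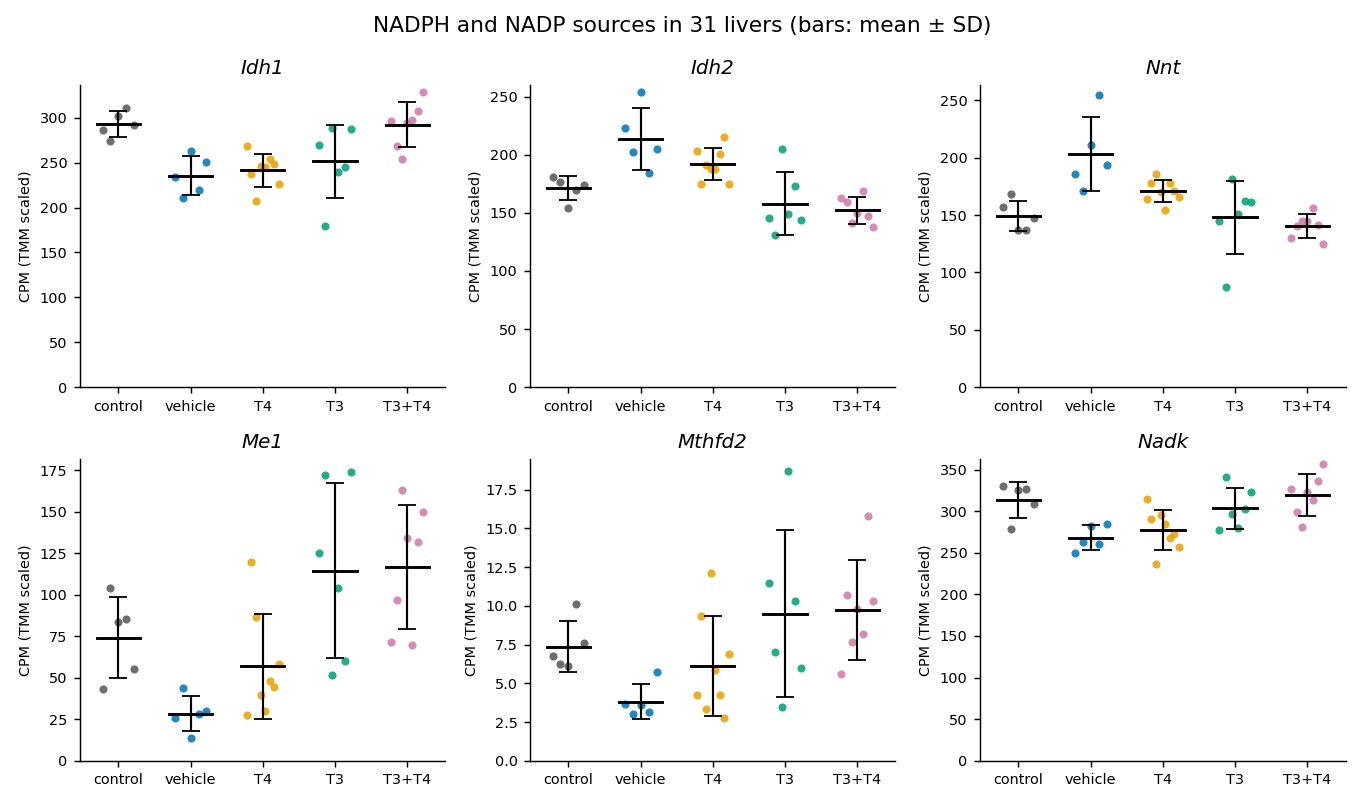
CPM after TMM scaling (vertical axis, from 0) of Idh1 and 5 genes listed as NADPH or NADP sources in each liver (points), by group, with the group mean and SD as bars. Idh2 and Nnt are highest with vehicle, where Idh1, Me1 and Nadk are lowest.

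Genes of a further list, drawn up for pentose metabolism, were called in both directions. Of 12, 10 were tested. Over all tested genes, 4.92% rose and 4.71% fell in vehicle against control livers. With T3+T4 against vehicle 7.33% of all tested genes rose and 8.45% fell, and with T3 against vehicle 6.77% were called. In vehicle against control livers Pgm2 (ENSMUSG00000025791) rose by 0.27 ± 0.07 (log2, SE, adjusted p = 0.0164). The list took this gene in by symbol, and by its ID it is a phosphoglucomutase gene and not a pentose enzyme. The gluconate kinase gene Idnk fell by 0.30 ± 0.08 (0.0237), and the list median, Pgm2 included, was 0.02. With T3+T4 against vehicle Idnk rose by 0.36 ± 0.08 (0.00242) and 2 genes fell (Pgm2 by 0.36 ± 0.07, adjusted p = 0.000484, and Xylb), with a list median of 0.12 against -0.00 for all genes. T3 against vehicle gave calls for the same 3 genes, with Idnk at 0.32 and Pgm2 at -0.36.

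Of 15 tested genes listed as users of NADPH, 4 fell in vehicle against control livers (Fasn, Sqle and Hsd17b12 among them), where 4.71% of all genes fell. The list also held an elongase gene and Scd1, whose enzymes do not draw directly on NADPH. With T3+T4 against vehicle 5 rose (the same 3 and Dhcr7 among them), where 7.33% of all genes rose. Fatty acid synthase (Fasn) averaged 168 ± 30.9 CPM in controls, 71 ± 15.8 with vehicle, 108 ± 23.2 with T4, 136 ± 24.7 with T3 and 250 ± 74.9 with T3+T4 (SD), and rose by 1.81 ± 0.20 with T3+T4 (log2, SE; adjusted p = 5.03e-07). With T3+T4 against T4 Fasn rose by 1.21 ± 0.16 (3.25e-05). Gsr, which reduces glutathione with NADPH, averaged 84.1 CPM in controls, 85.5 with vehicle and 91.3 with T3+T4, and Txnrd1 188, 213 and 187 CPM. The fatty acid desaturase Scd1 averaged 166, 261 and 143 CPM in the same groups and Tecr, an enzyme of fatty acid elongation, 61.8, 63 and 61.7 CPM. None of these 4 was called in either comparison. Over all 15 genes the median was 0.02 in vehicle against control and 0.10 in T3+T4 against vehicle livers.

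Calls among targets of NRF2, the oxidative stress factor known to act on pentose phosphate genes, went both ways. Of 14 tested, 1 rose (Gstp1) and 2 fell (Slc7a11 and Osgin1) in vehicle against control livers. With T3+T4 against vehicle 2 rose and 3 fell. Called or not, 10 of the 14 estimates were above 0 in the first comparison and 2 in the second, with medians of 0.26 and -0.24. Gstp1, a glutathione transferase, rose by 0.64 ± 0.14 (log2, SE; adjusted p = 0.00528) in the first and fell by 0.75 ± 0.13 (0.000272) in the second. Around glucose 6-phosphate itself, 17 genes were tested. In vehicle against control livers Gpi1, whose enzyme interconverts glucose 6-phosphate and fructose 6-phosphate, rose by 0.29 ± 0.09 (0.0438) and the pyruvate kinase gene Pklr fell by 0.55 ± 0.17 (0.0412). With T3+T4 against vehicle 1 rose and 3 fell, among them the glucose transporter Slc2a2 by 0.31 ± 0.08 (0.00953) and Fbp1, a gluconeogenic enzyme, by 0.25 ± 0.07 (0.0097). The list medians were 0.03 and -0.09.

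Among 11 regulators tested, 1 rose (Thra) and 3 fell (Srebf2, Mlxipl and Thrsp) in vehicle against control livers, and 3 rose and 1 fell with T3+T4 against vehicle, the same 4 genes with their directions exchanged. Srebf2, the factor of cholesterol synthesis genes, fell by 0.79 ± 0.16 (log2, SE; adjusted p = 0.00261) and rose by 1.01 ± 0.15 (5.43e-05). Mlxipl, the glucose-sensing factor ChREBP, averaged 228 ± 40.9 CPM in controls, 165 ± 23.6 with vehicle, 190 ± 26.7 with T4, 220 ± 8.89 with T3 and 231 ± 31.2 with T3+T4 (SD), and was called with T3 against vehicle (0.41 ± 0.11, adjusted p = 0.0227). The receptor gene Thra rose by 0.37 ± 0.07 in vehicle livers against control (0.00123). Over the 80 genes of these 6 lists, T4 against vehicle gave 0 calls among 76 tested by edgeR, 12 at an unadjusted p under 0.05 and 1 by DESeq2. The corresponding counts for T4 against T3 were 0, 22 and 2. Over all tested genes, 12.7% had an unadjusted p under 0.05 in T4 against vehicle and 14.2% in T4 against T3. All of these comparisons share groups with those of the 9 genes, and the lists were drawn up with results of these data known.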

How the data were processed

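The 9 genes and the gene lists were chosen with earlier results of these data known. The table the authors deposited gives read counts as whole numbers for each gene, with 1 added to each value at a step not given in the sources used here (lowest value 1, 50.1% of values at 1). Libraries were made with a stranded mRNA kit, per the labels' protocols. The submitters' processing notes name bcl2fastq, Trimmomatic, BWA 0.7.10 and DESeq, and the human build GRCh38, whereas mm10 stands in the column names. The counting tool, its use of strand and the annotation are not given in the sources used here. Positions and lengths came from GENCODE M21 (42462 of the gene IDs, 97.3%, matched), symbols from the deposited table, and gene starts from RefSeq, where all 9 genes matched (Idh1 and Pgd with 2 windows each, the nearest to the principal transcript being used). No column of per-sample values was left unmapped.

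Groups followed the source names. Counts as deposited were filtered with filterByExpr, scaled by TMM and fitted with edgeR 4.0.16 (quasi-likelihood, R 4.3.3), all 31 libraries entering with 1 mean for each group (26 residual degrees of freedom) and Benjamini-Hochberg adjustment over 17057 genes at 0.05. There were 9 tested comparisons. CPM was computed from the deposited counts after TMM scaling, and no authors' CPM was used. Intervals are 95% intervals of the log2 fold change, from its SE and the normal distribution, which makes them somewhat narrower than the test implies. They are not adjusted for the number of genes, so an interval can leave out 0 where the adjusted p misses the threshold. The fit was tested on simulated data with known changes. Alternatives were DESeq2 1.42.0, other scaling and filters, subtraction of the added 1, a ceiling correction, covariates (sex, library total), subsets of animals and leaving out each library. Named were the 9 genes, up to 2 genes with the smallest adjusted p from each list and main comparison, and the 5 genes most like Tkt; 1 gene that this rule picks is not reported here. Other list genes behind counts of 5 or fewer, and Gsr, Txnrd1, Scd1, Tecr, Ikbkg, Kansl1l, Fam129c and G6pd2, were named after their values were seen.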

Additional observations from a re-analysis of the deposited data

How the results depend on the processing

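No call of the 9 genes changed direction in any of the 44 alternative settings run for each comparison. The difference of Tkt between T3+T4 and T3 livers stayed between 0.32 and 0.43. In vehicle against control livers, 3 genes were called, with 0 among animals 54 to 85, 1 without the animals of mismatched sex label and 1 without the libraries high in acinar or muscle genes. In T3+T4 against vehicle livers, 5 were called, with 1, 3 and 2 under the same settings in that order and 3 to 6 on leaving out single libraries (3 without vehicle animal 38). In T3+T4 against T4 livers, 3 were called, with 1 among animals 54 to 85, 0 without the libraries high in acinar or muscle genes, 4 without the animals of mismatched sex label (H6pd added), 4 with the library total as a covariate (Taldo1 added) and 2 to 4 on leaving out single libraries. In T4 against control livers, 1 was called, with 2 under DESeq2, 2 in a fit of the compared groups only, 2 with the ceiling correction, 2 with the library total as a covariate, 0 among animals 54 to 85, 0 without the libraries high in acinar or muscle genes and 0 to 2 on leaving out single libraries (0 without control animal 42, 49 or 50 or T4 animal 46, 2 without T4 animal 40 or T3 animal 61). In T3 against vehicle livers, 0 were called, with 0 to 1 on leaving out single libraries. In T3 against control livers, 0 were called, with 1 under DESeq2 and 0 to 1 on leaving out single libraries (1 without control animal 47, T4 animal 40 or T3 animal 60, 62 or 65). The subsets hold fewer animals. The share of all genes called in each alternative fit is not given here, so changes in these counts cannot be read as particular to the 9 genes. The alternative with no filter kept the 29942 genes whose values differ between libraries. Low depth limits G6pdx and Rpia most (at least 81 and 41 counts in each library). No paired analysis was possible because animal numbers are not shared between groups.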

Other observations

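A few livers were the lowest of their group for several of the 9 genes at once. Control animal 47 was lowest in 6 (Tkt, Taldo1, Pgd, Pgls, Rpe and Idh1), T4 animal 46 in 5 (Taldo1, Pgd, Pgls, Rpe and Idh1) and vehicle animal 38 in 5 (Tkt, Taldo1, Pgd, Pgls and Idh1). T3 animal 61 was lowest in 4 (Tkt, Rpia, Rpe and Idh1) and T3+T4 animal 78 in 4 (Tkt, Taldo1, Rpe and Idh1). Of 45 sets of 1 gene in 1 group, 0 held a library set apart from the others by the gap test at 95%.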
